A study of Mus musculus with 6 samples.

Results

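The genes described here are the PDGF ligands Pdgfa, Pdgfb, Pdgfc and Pdgfd and the PDGF receptors Pdgfra and Pdgfrb. Their choice was by symbol, with earlier results of these data known. All 6 had a row among the 16729 genes of the deposited table, and all 6 passed the filter on low counts in both comparisons below. RNA-seq was performed on tumors formed by mG7080 cells, a gliomasphere culture from a mouse GBM model whose mutations include p53 and Nf1, after injection into the brain of C57BL/6 hosts. Hosts were WT (n = 3 tumors, WT 1 to WT 3) or Esm1 KO (n = 3 tumors, KO 1 to KO 3), where Esm1 encodes the secreted proteoglycan Endocan. Injected cells were the same in both groups and carried the same mutations, so that the labelled difference between groups was the genotype of the host. The culture is a single line, host age is not in the labels, and no treatment other than the injection is named for these tumors. The comparison addresses whether the ligands and receptors of the pathway that the study links to Endocan are at different levels when the host lacks Esm1.

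PDGFs are secreted growth factors that act as disulfide-linked dimers on a pair of receptor tyrosine kinases. PDGF-AA and PDGF-CC act mainly through PDGFRα, PDGF-DD mainly through PDGFRβ, and PDGF-BB binds both receptors. In the brain, PDGFRα marks oligodendrocyte precursor cells and drives proneural gliomas, whereas PDGFRβ marks pericytes and other mural cells, which are recruited by PDGF-B from endothelium.

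Before the members are compared, 1 library has to be set apart. Esm1 itself had 25, 21 and 82 reads in WT 1, WT 2 and WT 3. It had 1 read in KO 1, 4 in KO 3 and 24 in the library labelled KO 2. Against its label, the library labelled KO 2 was thus level with WT 1 and WT 2 in Esm1. It also lay on the WT side of the first principal component, which carried 85.5% of the variance. Every comparison was therefore made over all 6 libraries and again over 5 libraries without KO 2, and group means of KO tumors that include the library labelled KO 2 carry this doubt. With all 6 libraries the log2 fold change of Esm1 was -2.20 ± 1.01 (SE, edgeR quasi-likelihood F test, adjusted p = 0.192). No test of Esm1 is given without KO 2, since its reads were a reason for setting that library apart. The first principal component was built from genes that are also compared below. Leaving out a KO library that lies with WT on it favors calls, so tests without KO 2 are not independent of that choice.

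Library totals ranged from 17632070 to 22241832 reads counted on genes, so that 1 read corresponded to 0.0445 to 0.057 CPM, the reads of a gene scaled to library size. With all 6 libraries, 0% of 16166 genes were called lower and 0% higher at an adjusted p under 0.05 by edgeR's quasi-likelihood test, although 1923 and 2462 genes had an unadjusted p under 0.05. DESeq2 called 431 lower and 775 higher, and limma-voom called 0 in each direction. Without KO 2, 28.3% of 16279 genes were called lower and 24.5% higher. KO 1 and KO 3 also differed from the other libraries in markers of cell types. Summed levels of 15 proliferation genes were 1504 to 2730 CPM in WT tumors, 1674 CPM in KO 2, 183.3 CPM in KO 1 and 82.05 CPM in KO 3. Summed levels of 14 neuron markers were 2375 to 6891 CPM in WT tumors, 6034 CPM in KO 2, 14932 CPM in KO 1 and 18010 CPM in KO 3. The tissue is bulk tumor with host cells in it, so fewer cells of a type and less RNA per cell cannot be told apart. The part of this composition in the results below was not tested.

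The stretch directly upstream of the transcription start is shown for the members with a promoter entry that could be printed. These were Pdgfra, the receptor that was lower in KO 1 and KO 3, Pdgfc and Pdgfd. Without KO 2, Pdgfc was the ligand with the largest fold difference and Pdgfd the ligand that was not called. RefSeq promoter entries on GRCm38.p6 were found for Pdgfa, Pdgfc, Pdgfd and Pdgfra, and those of Pdgfa overlap its own annotated exons and are not printed. Pdgfb and Pdgfrb are not shown. Each sequence holds the 250 bases before the start, on the plus strand from 5′ to 3′. Pdgfra lies at chr5:75152001-75152250, Pdgfc at chr3:81036166-81036415 and Pdgfd at chr9:6168236-6168485. Capitals mark matches to any of 4 motifs searched on either strand, the GC box (GGGCGG), the TATA box (TATAAA), the CCAAT box (CCAAT) and the E-box (CACGTG).
Pdgfra: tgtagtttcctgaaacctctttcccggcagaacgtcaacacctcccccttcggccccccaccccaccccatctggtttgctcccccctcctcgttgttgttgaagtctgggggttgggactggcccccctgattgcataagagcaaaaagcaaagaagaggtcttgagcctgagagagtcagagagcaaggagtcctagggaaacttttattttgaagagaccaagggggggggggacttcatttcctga
Pdgfc: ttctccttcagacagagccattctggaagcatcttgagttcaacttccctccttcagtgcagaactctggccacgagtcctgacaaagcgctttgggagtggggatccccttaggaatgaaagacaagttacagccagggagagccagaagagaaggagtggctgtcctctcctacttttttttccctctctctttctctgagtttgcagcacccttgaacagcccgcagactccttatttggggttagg
Pdgfd: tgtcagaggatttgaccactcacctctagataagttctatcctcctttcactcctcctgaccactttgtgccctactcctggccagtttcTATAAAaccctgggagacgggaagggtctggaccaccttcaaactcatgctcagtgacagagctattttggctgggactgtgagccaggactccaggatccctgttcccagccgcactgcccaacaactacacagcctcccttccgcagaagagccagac
The Pdgfra stretch had a GC content of 54.4% and 4 CpG dinucleotides, and none of the 4 motifs was found in it. That of Pdgfc had 50.8% GC and 3 CpG dinucleotides, also with 0 motifs. That of Pdgfd had 53.6% GC and 3 CpG dinucleotides, with 1 match to the TATA box letters. This match lay in the part of the stretch farther from the start, and its use was not tested. The same letters were found in 12.4% of 32851 mouse promoters of the same length. The GC contents of these stretches lay near the median of those promoters, 52.4%, and their CpG counts were below the median of 6. The upstream stretches of the 2 Pdgfa starts were richer, at 66.4% and 72.4% GC with 19 and 28 CpG dinucleotides, and held 1 and 2 GC boxes, a motif present in 32.7% of all promoters. In this measure the upstream sequence of Pdgfra was close to those of Pdgfc and Pdgfd, and Pdgfa stood apart.

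Of the members, 4 were called higher (Pdgfa, Pdgfb, Pdgfc and Pdgfrb) and 1 lower (Pdgfra) in tumors of KO hosts without KO 2, and 0 were called with all 6 libraries. Against the background shares given above, 4 of 6 higher compares with 24.5% and 1 of 6 lower with 28.3% of all genes. The median size of the log2 difference was 0.758 over the members and 0.725 over all genes tested, so that the members did not move by more than a typical gene of these tumors. With all 6 libraries, every KO library was above every WT library for 3 of 6 members (Pdgfa, Pdgfb and Pdgfrb), as it was for 13.2% of all genes, and below for 0 members, against 14.6% of all genes. Without KO 2, 4 members were above with no overlap, against 37.5% of all genes, and 1 (Pdgfra) was below, against 40.2%. The fitted difference was above 0 for all 4 ligands, Pdgfd without passing the test, and opposed between the receptors.

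**Figure D1:**
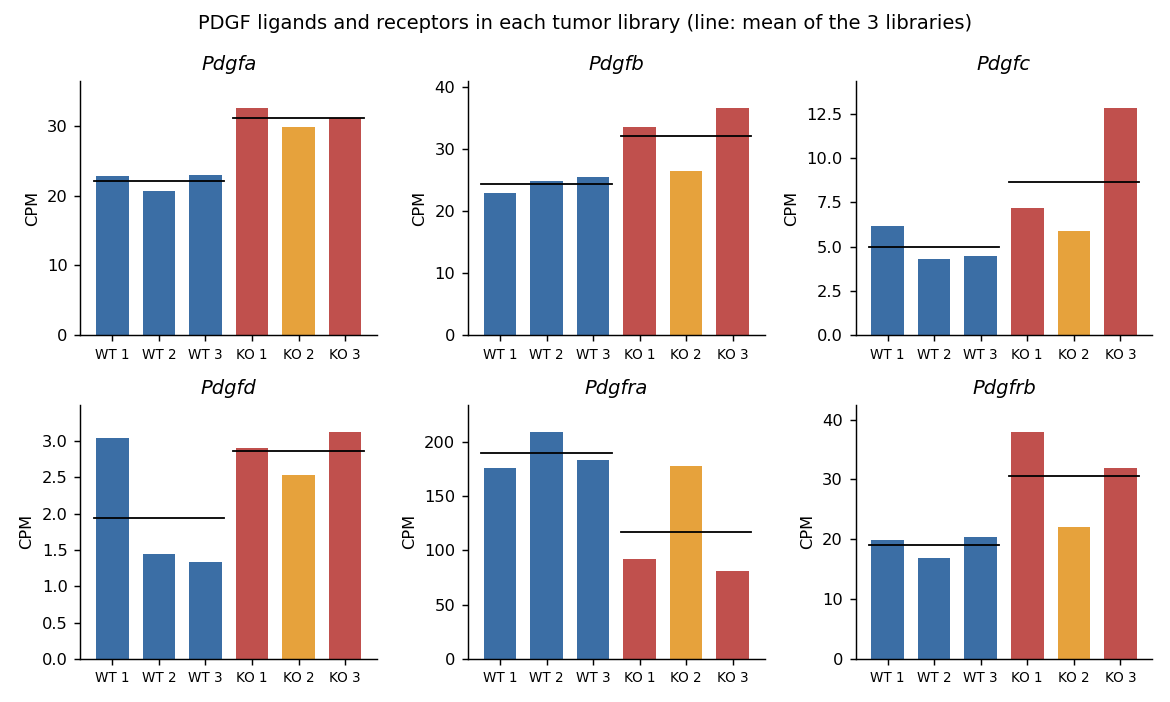
Level in CPM (reads scaled to library size with TMM factors) of each PDGF ligand and receptor in each library, with WT in blue, KO 1 and KO 3 in red, the library labelled KO 2 in orange, and a line at the mean of each group of 3. Pdgfa, Pdgfb and Pdgfrb are above all WT libraries in every KO library, whereas Pdgfra is lower in KO 1 and KO 3 and at 177.3 CPM in KO 2.

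Pdgfa, the A chain, whose dimer binds PDGFRα only, is at chr5:138976014-138997370 on the minus strand of GRCm38. Its level was 22.89, 20.67 and 22.99 CPM in WT 1, WT 2 and WT 3. It was 32.57, 29.91 and 31.19 CPM in KO 1, KO 2 and KO 3. All 3 KO libraries, KO 2 included, were above all 3 WT libraries, and the KO values lay close together. The log2 fold change was 0.53 ± 0.13 (SE) without KO 2, with an adjusted p of 0.0221 by edgeR's quasi-likelihood test. With all 6 libraries it was 0.48 ± 0.13 (adjusted p = 0.184, unadjusted p = 0.0104 by the same test). The call was lost when another library was left out besides KO 2, with an adjusted p of 0.116 without KO 1, 0.110 without KO 3, 0.0659 without WT 2 and 0.0850 without WT 3, while the log2 fold change stayed between 0.47 and 0.56.

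Pdgfb, the B chain that endothelial cells secrete to attract pericytes, is at chr15:79995874-80014977 on the minus strand. It had 22.84, 24.76 and 25.41 CPM in WT tumors, and 33.43, 26.35 and 36.50 CPM in KO 1, KO 2 and KO 3. KO 2 was just above the highest WT library, and KO 1 and KO 3 were clearly above it. The log2 fold change was 0.53 ± 0.13 without KO 2 (edgeR quasi-likelihood test, adjusted p = 0.0220) and 0.38 ± 0.17 with all 6 libraries (adjusted p = 0.191). Leaving out a further library took the adjusted p to 0.0794 (KO 1), 0.140 (KO 3), 0.0549 (WT 2) or 0.0823 (WT 3). Markers of endothelium did not follow the same pattern. Summed over 12 endothelial markers, levels were 251.3 to 291.5 CPM in WT tumors and 305.1, 262.8 and 223.4 CPM in KO 1, KO 2 and KO 3. Against 28.3% and 24.5% of all genes, 1 of the 12 was called lower and 2 higher without KO 2. Pdgfb equaled 8.493% to 9.087% of that sum in WT tumors and 10.96%, 10.03% and 16.34% in KO 1, KO 2 and KO 3. Platelets are another source of PDGF-B, and platelet markers could be measured only in part. Of 6 such markers, Ppbp, Gp9 and Treml1 had no row. Summed over the other 3, levels were 10.03 to 15.64 CPM in WT tumors and 22.93, 18.25 and 22.07 CPM in KO 1, KO 2 and KO 3. Without KO 2, when 24.5% of all genes were called higher, 1 of these 3 (Gp1bb) was called higher and 0 lower. Their median log2 fold change was 0.22, with Itga2b the lowest. A sum over 3 genes, with a single one called, cannot show whether platelets differed. The part of these cells in the Pdgfb difference was not tested.

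Pdgfc, whose product is secreted in latent form and activated by the protease tPA, is at chr3:81036416-81214040 on the plus strand. Its level was 6.138, 4.290 and 4.440 CPM in WT tumors. It was 7.187, 5.876 and 12.81 CPM in KO 1, KO 2 and KO 3. KO 3 stood apart from every other library, KO 1 was just above WT 1, and KO 2 was within the WT range. The log2 fold change of 1.02 ± 0.33 without KO 2 was the largest among the ligands (edgeR quasi-likelihood test, adjusted p = 0.0446), and with all 6 libraries it was 0.78 ± 0.36 (adjusted p = 0.193). The call rested on KO 3, without which the log2 fold change was 0.54 (adjusted p = 0.308 by the same test). It was also lost without KO 1 (adjusted p = 0.0580), WT 2 (0.109) or WT 3 (0.135). Of the reads of all 4 ligands, Pdgfc took 15.3% in KO 3 (95% Wilson interval 13.6% to 17.2%) and 8.20% to 11.2% in the other 5 libraries.

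Pdgfd, also a latent ligand and the one with preference for PDGFRβ, is at chr9:6168584-6378850 on the plus strand. It was the lowest member, with 27 to 64 reads per library. It had 3.045, 1.447 and 1.332 CPM in WT tumors, and 2.909, 2.537 and 3.124 CPM in KO 1, KO 2 and KO 3. KO libraries lay together at the level of WT 1, above WT 2 and WT 3, so the groups overlapped. The log2 fold change of 0.64 ± 0.44 without KO 2 did not pass the test (edgeR quasi-likelihood test, adjusted p = 0.255), nor did 0.54 ± 0.39 with all 6 libraries (adjusted p = 0.324). Without WT 1 as well, Pdgfd was called higher, at a log2 fold change of 1.11 (adjusted p = 0.0202 by the same test).

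Summed over the 4 ligands, the level was 54.91, 51.16 and 54.17 CPM in WT tumors and 76.10, 64.68 and 83.61 CPM in KO 1, KO 2 and KO 3. Every KO library was above every WT library in this sum. Neurons and astrocytes are among the cells known to make PDGF-A. Of 14 neuron markers, 13 were called higher and 0 lower without KO 2, with a median log2 fold change of 1.84. Of 7 astrocyte markers, 4 were called higher and 1 (Gfap) lower. Shares over all genes were 24.5% higher and 28.3% lower. Relative to the summed neuron markers, Pdgfa equaled 0.332% to 0.870% in WT tumors and 0.218%, 0.496% and 0.173% in KO 1, KO 2 and KO 3. Relative to the 7 summed astrocyte markers, Pdgfa equaled 0.545% to 0.716% in WT tumors and 0.491%, 0.654% and 0.521% in KO 1, KO 2 and KO 3. Pdgfa was thus higher in level and lower relative to neuron markers in KO 1 and KO 3. Relative to astrocyte markers, these 2 libraries were close to WT 1, just below it. Shares of the ligand reads varied between libraries, within groups too. Pdgfd took 2.46% in WT 3 and 5.55% in WT 1. Pdgfa took 40.4% to 42.4% of ligand reads in WT tumors and 42.8%, 46.2% and 37.3% in KO 1, KO 2 and KO 3.

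Pdgfra, the receptor of PDGF-AA and a driver of oligodendrocyte precursor growth, is at chr5:75152292-75198215 on the plus strand. Its level was 176.2, 209.0 and 183.2 CPM in WT tumors. It was 91.90, 177.3 and 81.12 CPM in KO 1, KO 2 and KO 3. KO 1 and KO 3 were far below all other libraries, and KO 2 was within the WT range. The log2 fold change was -1.13 ± 0.16 without KO 2, a 2.18-fold lower level (edgeR quasi-likelihood test, adjusted p = 0.00800), and -0.72 ± 0.32 with all 6 libraries (adjusted p = 0.190). The call held without any 1 further library except KO 3, without which the log2 fold change was -1.04 (adjusted p = 0.0757). Among the 16279 genes tested without KO 2, 16.9% had a lower log2 fold change than Pdgfra.

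Most other markers of oligodendrocyte precursors were also lower in KO 1 and KO 3. Against 28.3% and 24.5% of all genes, 10 of 13 such markers were called lower and 0 higher without KO 2. The median log2 fold change was -0.02 over all genes tested and -1.95 over these markers. Their summed level was 3227 to 4078 CPM in WT tumors, 4258 CPM in KO 2, 1098 CPM in KO 1 and 703.4 CPM in KO 3. The proteoglycan gene Cspg4 (NG2), which precursors and pericytes share, was 194.5, 241.0 and 211.9 CPM in WT tumors and 46.09, 302.7 and 28.53 CPM in KO 1, KO 2 and KO 3. Relative to the summed precursor markers, Pdgfra equaled 4.49% to 5.46% in WT tumors, 4.16% in KO 2, 8.37% in KO 1 and 11.5% in KO 3. Pdgfra was thus lower in CPM and higher relative to the other precursor markers in the same 2 libraries. Fibroblasts also express Pdgfra. Against 28.3% and 24.5% of all genes, 1 of 8 fibroblast markers tested was called lower and 2 higher without KO 2. The sum over these and Mfap5, which did not pass the filter without KO 2, was 170.9 to 349.4 CPM in WT tumors and 577.3, 333.5 and 714.7 CPM in KO 1, KO 2 and KO 3, most of it from Thy1, which neurons also express, at 508.5, 235.0 and 612.3 CPM.

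**Figure D2:**
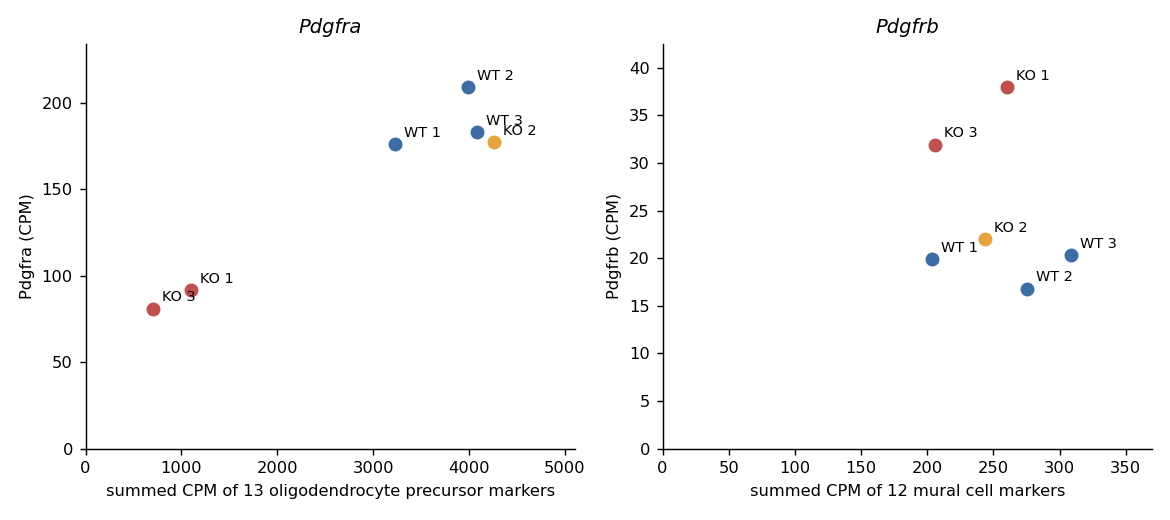
Pdgfra against the summed CPM of 13 oligodendrocyte precursor markers (left) and Pdgfrb against the summed CPM of 12 mural cell markers (right), a point per library, with WT in blue, KO 1 and KO 3 in red and KO 2 in orange. KO 1 and KO 3 lie apart at low Pdgfra and low precursor markers, whereas for Pdgfrb they lie above the other libraries at a similar marker sum.

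Pdgfrb, the receptor on pericytes and other mural cells, is at chr18:61045150-61085061 on the plus strand. Its level was 19.89, 16.80 and 20.33 CPM in WT tumors. It was 37.93, 21.99 and 31.92 CPM in KO 1, KO 2 and KO 3. All 3 KO libraries were above all 3 WT libraries, KO 2 only slightly so. The log2 fold change was 0.88 ± 0.16 without KO 2 (edgeR quasi-likelihood test, adjusted p = 0.0114) and 0.67 ± 0.23 with all 6 libraries (adjusted p = 0.184, unadjusted p = 0.0275). Without KO 1 the log2 fold change was 0.75 (adjusted p = 0.0686), and without KO 3 it was 1.00 (adjusted p = 0.0728), and neither passed.

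Mural cell markers did not rise with Pdgfrb as a group. Of 12 markers, 2 were called higher and 2 lower without KO 2, against 24.5% and 28.3% of all genes. The median log2 fold change of the markers was -0.18. Myh11, the myosin of smooth muscle, rose by 1.59 ± 0.24 (edgeR quasi-likelihood test, adjusted p = 0.00882), and Vtn, the pericyte gene for vitronectin, by 0.75 ± 0.14 (adjusted p = 0.0126). Anpep, a pericyte peptidase, fell by 1.16 ± 0.26 (adjusted p = 0.0169, with all 6 libraries -0.68 and adjusted p = 0.255) and Notch3, the Notch receptor of mural cells, by 1.11 ± 0.30 (adjusted p = 0.0282, same test). Summed mural markers were 203.9 to 308.5 CPM in WT tumors and 260.6, 243.8 and 206.1 CPM in KO 1, KO 2 and KO 3. Pdgfrb equaled 6.10% to 9.75% of that sum in WT tumors, 9.02% in KO 2, 14.6% in KO 1 and 15.5% in KO 3.

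**Figure D3:**
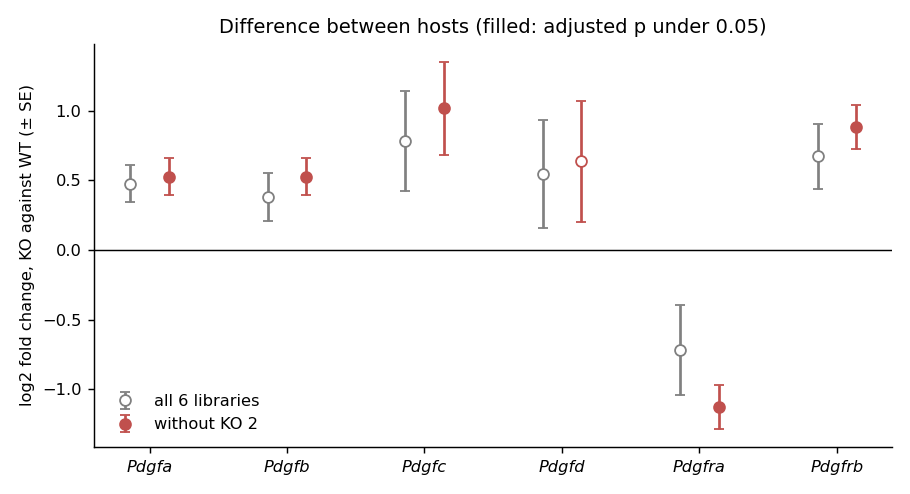
Log2 fold change of each member, KO hosts against WT hosts, with its standard error, over all 6 libraries (gray) and without KO 2 (red); filled points have an adjusted p under 0.05. Without KO 2, Pdgfa, Pdgfb, Pdgfc and Pdgfrb are filled above 0 and Pdgfra below 0, and no point is filled with all 6 libraries.

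The receptors therefore shifted against each other. Of the reads on both receptors, Pdgfra took 89.9% in WT 1 (95% Wilson interval 88.9% to 90.7%), 92.6% in WT 2 (91.7% to 93.3%) and 90.01% in WT 3 (89.06% to 90.89%). It took 70.8% in KO 1 (68.9% to 72.6%), 71.8% in KO 3 (69.8% to 73.6%) and 89.0% in KO 2 (88.0% to 89.9%). KO 1 and KO 3 were close to each other and far below the rest, and KO 2 was just below the lowest WT library, with an interval that overlapped those of WT 1 and WT 3. These intervals cover counting error only.

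Levels of different genes were compared per length, with the deposited FPKM values. In all 3 WT tumors the order was Pdgfra, Pdgfa, Pdgfb, Pdgfrb, Pdgfc and Pdgfd. Mean FPKM in WT tumors was 30.8 ± 3.79 (SD, n = 3) for Pdgfra, 23.2 ± 0.94 for Pdgfa, 8.81 ± 0.73 for Pdgfb, 3.73 ± 0.31 for Pdgfrb, 1.50 ± 0.26 for Pdgfc and 1.14 ± 0.52 for Pdgfd. Neighbors in that order were separated by more than their SDs except Pdgfc and Pdgfd. In KO 1 and KO 2 Pdgfa was above Pdgfra, and in KO 3 both Pdgfa and Pdgfb were above Pdgfra. These values rest on the gene lengths used by the authors. The length implied by FPKM was 1018 bases for Pdgfa, whose longest annotated transcript has 2060. With the longest transcript as length, the order was the same in WT tumors, KO 1 and KO 3, and Pdgfra came first in KO 2.

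Sums per length depended on which length was used. With the deposited FPKM, receptors summed to 31.4 to 38.4 and ligands to 33.7 to 35.5 in WT tumors. Ligands summed to 42.8, 43.7 and 41.8 FPKM in KO 1, KO 2 and KO 3, all above WT, and receptors to 19.2, 32.8 and 15.8 FPKM, so that the ligand sum was above the receptor sum in every KO library. With the longest transcript as length, ligands summed to 22.1 to 23 and receptors to 30.2 to 37 in WT tumors, so that receptors were above ligands in all 3. The ligand sums were then 27.5, 27.4 and 27.8 and the receptor sums 18.6, 31.7 and 15.3 in KO 1, KO 2 and KO 3, so that ligands were above receptors in KO 1 and KO 3 and below them in KO 2. By deposited FPKM, the ratio of Pdgfra to Pdgfrb was 7.32 to 10.3 in WT tumors, 6.66 in KO 2, 2.00 in KO 1 and 2.10 in KO 3.

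**Figure D4:**
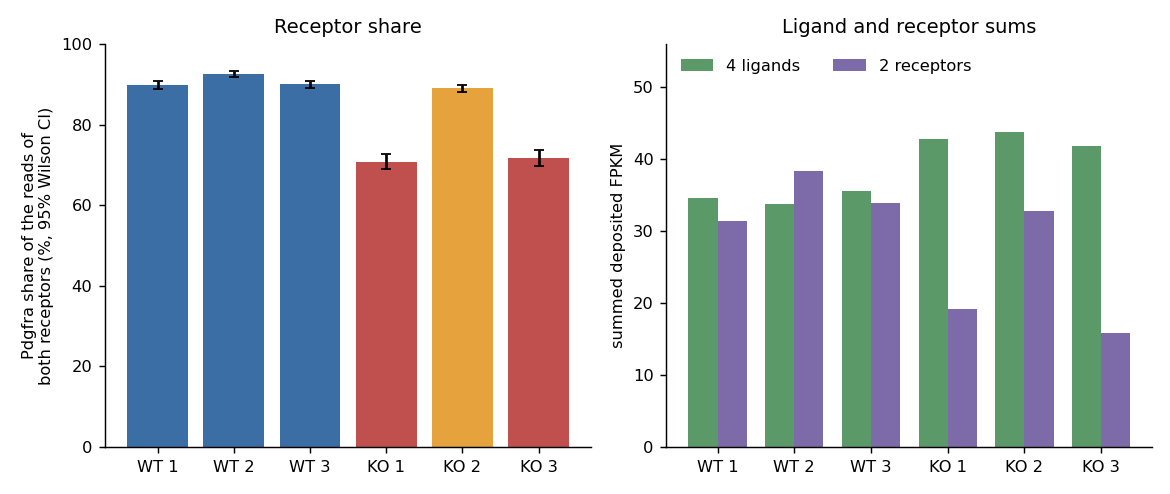
Left, share of Pdgfra in the reads of both receptors (%) per library with 95% Wilson intervals; right, summed deposited FPKM of the 4 ligands (green) and 2 receptors (purple) per library. The Pdgfra share is 89.0% to 92.6% in WT tumors and KO 2 and 70.8% to 71.8% in KO 1 and KO 3, where the receptor sum is also lowest.

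Other genes of the pathway are described without KO 2, and none of them was called with all 6 libraries, whose log2 fold change is added where it differs by more than 1.5 times. Among genes that process or bind PDGF, the called genes were lower. Of 8 such genes, 4 were called lower and 0 higher without KO 2 (edgeR quasi-likelihood test), against 28.3% and 24.5% of all genes. Their median log2 fold change was -0.92. Plau, the urokinase that activates PDGF-DD, fell by 2.19 ± 0.42, from 12.56 to 29.04 CPM in WT tumors to 5.476 and 3.644 CPM in KO 1 and KO 3. KO 2 had 16.38 CPM of Plau, and its inclusion brought the difference to -1.32 on the log2 scale (adjusted p = 0.199). St14, the protease matriptase, fell by 2.14 ± 0.36, from 4.194 to 6.757 CPM in WT tumors to 1.198 and 1.093 CPM. KO 2 had more St14 than any WT tumor, 9.348 CPM, and with it the log2 fold change was -0.39 (adjusted p = 0.740). Sparc, a matrix protein that binds PDGF-B, fell by 1.35 ± 0.23, from 517.5 to 566.1 CPM in WT tumors to 254.4 and 173.4 CPM in KO 1 and KO 3. Plat, which encodes tPA, the activator of PDGF-CC, was also called lower, at -0.90 ± 0.20 (adjusted p = 0.0165). Lrp1, a coreceptor, had the highest value, 0.58 ± 0.22, and did not pass (adjusted p = 0.0676).

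Of 25 adaptors and kinases that bind the activated receptors, 11 were called lower and 3 higher, against 28.3% and 24.5% of all genes, with a median log2 fold change of -0.06. Stat3, a transcription factor activated by cytokine and growth factor receptors, fell by 1.64 ± 0.17 (edgeR quasi-likelihood test, adjusted p = 0.00798). With KO 2, at 218.3 CPM within the WT range, it was -0.90 (adjusted p = 0.227). Gab2, a docking protein of the phosphatidylinositol 3-kinase route, fell by 0.78 ± 0.14 (adjusted p = 0.0111). Grb7, an adaptor, had the highest value, 1.06 ± 0.49, without passing the test (adjusted p = 0.115).

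In the relay through Ras, MAP kinases and Akt, 8 of 17 genes were called higher and 2 lower. Over all genes, the shares were 24.5% and 28.3%, and the median log2 fold change of these 17 genes was 0.33. Pdpk1, a kinase upstream of Akt, rose by 0.92 ± 0.19, from 88.37 to 128.1 CPM in WT tumors to 195.0 and 204.0 CPM in KO 1 and KO 3, the libraries with the highest neuron marker sums. Nras, a Ras GTPase, fell by 1.02 ± 0.19, from 111.0 to 160.4 CPM in WT tumors to 68.68 and 66.28 CPM in KO 1 and KO 3. These are levels of mRNA, and phosphorylation of the kinases was not measured in these libraries.

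Negative regulators of the pathway were called lower in 6 and higher in 2 of 18 genes, the former a share near the 28.3% of all genes, with a median log2 fold change of -0.16. Socs3 fell by 2.87 ± 0.42 and Socs1 by 2.60 ± 0.38, which encode inhibitors of cytokine receptor kinases. With all 6 libraries these were -1.59 and -0.64 (adjusted p = 0.202 and 0.618), and Socs1 in KO 2, at 14.42 CPM, was above every WT tumor. Spry1, an ERK-induced inhibitor of receptor tyrosine kinases, fell by 2.40 ± 0.35.

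Of 17 early genes that PDGF induces in cultured cells, 6 were called lower and 6 higher, against 28.3% and 24.5% of all genes. Their median log2 fold change was 0.24. Myc, the transcription factor, fell by 5.05 ± 0.46, from 168.2 to 285.3 CPM in WT tumors to 8.785 and 4.165 CPM in KO 1 and KO 3. KO 2 had 130.8 CPM, and with it the log2 fold change of Myc was -2.19 ± 1.25 (adjusted p = 0.247). Ccl7, a monocyte chemokine, fell by 5.06 ± 0.56, with 178 reads over the WT libraries and 3 over KO 1 and KO 3, a ratio of 43.1 per counted read (95% exact counting interval 14.5 to 211). KO 2 alone had 52 reads of Ccl7, and with it the log2 fold change was -1.82 (adjusted p = 0.284). Odc1, the ornithine decarboxylase of polyamine synthesis and a Myc target, fell by 2.26 ± 0.29, against -1.40 with all 6 libraries (adjusted p = 0.184). Egr3, an immediate early factor also induced by activity in neurons, rose by 2.24 ± 0.54.

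**Figure D5:**
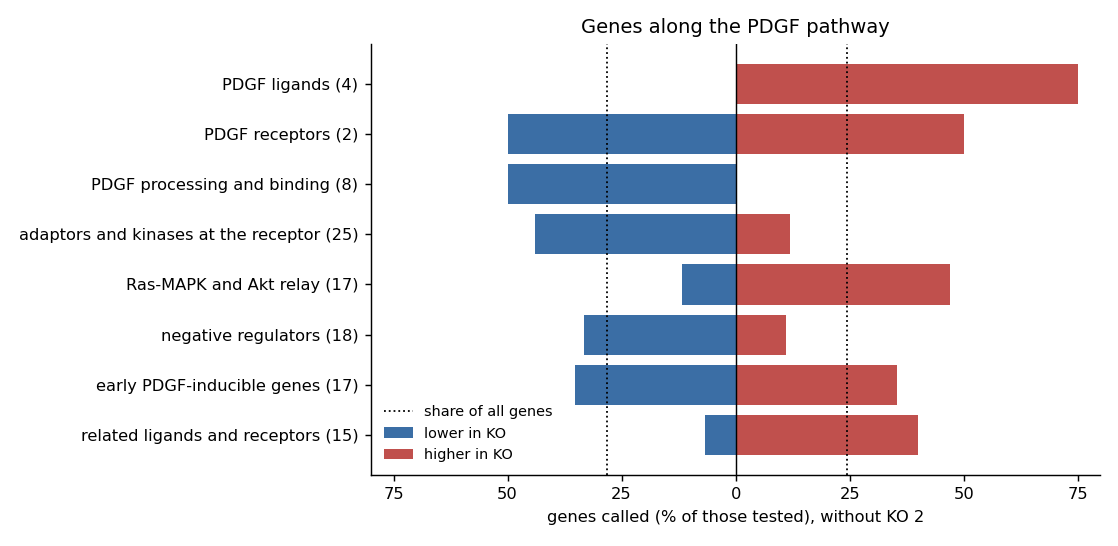
Share of tested genes called lower (blue, left) or higher (red, right) in KO hosts without KO 2, for the members and 6 lists of pathway genes, with the number tested in brackets; dotted lines mark the shares over all genes, 28.3% lower and 24.5% higher. All bars rest on small numbers of genes, from 2 receptors to 25 adaptors and kinases.

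Of 15 relatives of the PDGF system in the VEGF, KIT and CSF1 families, 6 were called higher and 1 lower. Over all genes, the shares were 24.5% and 28.3%, and the median log2 fold change of these relatives was 0.45. Vegfc, the lymphatic growth factor, rose by 1.81 ± 0.40 at a level of 0.9374 to 1.903 CPM in WT tumors. Il34, a CSF1 receptor ligand made by neurons, rose by 1.57 ± 0.39, and Flt1, the VEGF receptor VEGFR1, by 0.84 ± 0.22. Csf1, the other ligand of the CSF1 receptor, fell by 0.86 ± 0.15, against -0.45 with all 6 libraries (edgeR quasi-likelihood test, adjusted p = 0.315).

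Receptor genes of the same wider family lie beside the PDGF receptors in the genome, and none of those measured here was called. Pdgfra is followed on chromosome 5 by Kit, the stem cell factor receptor, at 376701 bases, and Kdr, which encodes VEGFR2, at 734612 bases. Kit had a log2 fold change of 0.54 ± 0.27 without KO 2 and did not pass (edgeR quasi-likelihood test, adjusted p = 0.133). Kdr had -0.70 ± 0.36 (adjusted p = 0.143), in the direction of Pdgfra, and the difference between the genes was not tested. Chic2, the nearest tested gene on the other side, was chosen after its values were seen, and fell by 1.17 ± 0.24 (adjusted p = 0.0140). Csf1r, the receptor of macrophage colony-stimulating factor, starts 15537 bases after Pdgfrb. It was at 169.5, 136.1 and 140.2 CPM in WT tumors and at 147.0, 196.0 and 148.0 CPM in KO 1, KO 2 and KO 3, and its log2 fold change without KO 2 was -0.01 ± 0.16 (adjusted p = 0.973).

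Across the 6 libraries, members were related as the group values imply, and correlations are given as description, since the points share the 2 host groups and the composition of the tumors. Log2 CPM of Pdgfra had a Pearson r of -0.952 with Pdgfb and -0.950 with Pdgfrb, and that of Pdgfrb had 0.899 with Pdgfb and 0.893 with Pdgfa. Pdgfd was the least tied to the others, with r between -0.653 and 0.781. Among 15299 genes with a mean of at least 1 CPM, those most like Pdgfra were Mex3a (r = 0.9999), BC017643 (r = 0.9995) and Ccdc86 (r = 0.9994). Most like Pdgfrb were Ntan1 (r = 0.9970), Sphk2 and Wdr60. Those most like Pdgfa were Aldh7a1, Fbrs and Grhl3, with r from 0.9893 to 0.9909. For Pdgfb they were Sugp1, Trpm4 and Otud3, for Pdgfc Btbd9, 1110046J04Rik and Sh2d7, and for Pdgfd Slc9a2, Ntng1 and Fbxo10.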

How the data were processed

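The authors aligned reads and counted them per gene, leaving raw counts and FPKM per library in the deposited table. The labels name CASAVA 1.8.2, mm10 and edgeR. The paper's methods name HTSeq and hg38, so the source build stays uncertain. Every row had a largest count of at least 5 and reads in at least 4 libraries. The table also holds the authors' fold changes, p-values and false discovery rates, which were not used, nor were 6 columns of normalized counts.

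Models were fitted to the counts with edgeR 4.0.16 under R 4.3.3 (filterByExpr with a minimum count of 10 and a minimum total of 15, TMM factors, quasi-likelihood F test, Benjamini-Hochberg adjustment over all genes tested, calls at an adjusted p under 0.05). Standard errors are the log2 fold change over the square root of F, and CPM used TMM factors over the 6 libraries. The pipeline was tested on simulated data. Members and lists were chosen with earlier results of these data known. Named were the members, Esm1, Kit, Kdr, Csf1r, and, from each pathway list, the lowest and highest gene and up to 2 further called genes by smallest p, all without KO 2, and the 3 genes most correlated with each member (log2 CPM, prior count 2). Plat, Gfap, Cspg4, Thy1, Mfap5, Gp1bb, Chic2 and the called mural genes were named after their values were seen. Members of the lists were counted without a set test, and Cxcl1 was not analysed here. Some genes that the naming rule picks are not reported here. Alternatives were RLE and upper quartile factors, other filters on low counts, DESeq2 1.42.0, limma-voom (limma 3.58.1), edgeR's exact test, leaving out each library, a replicate block and the 4 libraries WT 1, WT 2, KO 1 and KO 3. Positions came from GENCODE vM21 on GRCm38, matched by symbol for 15937 genes. Each tumor is from its own mouse, so p-values measure the spread between mice, with no information on litter or day. Library depth is given above. Intervals cover counting error only, since they were computed from numbers of reads and not from the spread between tumors. PCR copies were not marked, so the counting error may be larger than the intervals show.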

Additional observations from a re-analysis of the deposited data

How the results depend on the processing

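No member changed direction under any alternative, with or without KO 2. Over all 6 libraries, against 0 genes lower and 0 higher, DESeq2 called 431 lower and 775 higher, edgeR's exact test 39 and 66, and the 4 libraries WT 1, WT 2, KO 1 and KO 3 gave 2244 and 464. With 1 library left out in turn the counts ranged from 0 to 4608 lower and from 0 to 3986 higher, the highest counts being those without KO 2. Among the members over 6 libraries, DESeq2 called 1 higher (Pdgfa) and those 4 libraries gave 1 lower (Pdgfra) and 1 higher (Pdgfrb), against 0 and 0, and leaving out 1 library gave 0 to 1 lower and 0 to 4 higher. Without KO 2, against 4608 lower and 3986 higher, those 4 libraries gave 2244 and 464, and leaving out a further library gave 0 to 5532 lower and 0 to 5195 higher, with 0 and 0 without KO 3. Members called without KO 2 were then 0 to 1 lower and 0 to 5 higher, and 1 higher with the 4 libraries. Where a single KO library was left, it was assumed to vary like the WT libraries. With a replicate block in the fit of the 6 libraries, 0 genes were called lower and 0 higher (3328 and 3502 at an unadjusted p under 0.05), and 0 members. Deviations of same-numbered tumors from their group means had correlations of 0.587, 0.618 and -0.236. These cannot show whether the numbers are pairs, since KO 2 lay apart from KO 1 and KO 3. WT 1 had 0.587 with KO 1 and 0.564 with KO 3. No label names pairs, and the numbers were not taken as such. CPM from library totals, without TMM, lowered the log2 ratio of mean levels over 6 libraries for every member. It went from 0.49 to 0.32 for Pdgfa, from 0.40 to 0.21 for Pdgfb and from 0.80 to 0.60 for Pdgfc. For Pdgfd it went from 0.56 to 0.39, for Pdgfrb from 0.69 to 0.49 and for Pdgfra from -0.70 to -0.83. Depth limits Pdgfd most, at 27 to 64 reads per library. The cause of these shifts was not tested.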

Other observations

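Cell types that are not known for PDGF receptors also differed between KO 1 and KO 3 and the WT tumors. Of 12 markers of microglia and macrophages, 7 were called lower and 1 (P2ry12, a receptor of resting microglia) higher without KO 2. Over all genes, 28.3% were called lower and 24.5% higher. The 12 markers had a median log2 fold change of -0.68, while their summed level was highest in KO 2, at 1503 CPM against 1093 to 1159 CPM in WT tumors. All 15 proliferation genes were called lower, against 28.3% of all genes. Their median log2 fold change was -4.28, against -1.13 for Pdgfra. Pdgfra equaled 7.15% to 11.7% of their sum in WT tumors, 10.6% in KO 2, 50.1% in KO 1 and 98.9% in KO 3. Genes in this paragraph were named after their values were seen.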
